A study of Mus musculus with 8 samples.

Results

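The 9 genes Ep300, Crebbp, Kat2a, Kat2b, Brd2, Brd3, Hdac1, Hdac3 and Ncor1 encode proteins that write, read or erase histone acetylation, and they were taken as a named list, by a rule that uses no measured value. They are 9 of 55304 annotated gene symbols, and 12261 of those symbols have a transcription start site (TSS) in a region of H3K27 acetylation (H3K27ac) in these data. For each gene, the regions at its TSSs, in its gene body and within 50 kb of its TSSs were taken with their class and width. H3K27ac was profiled by ChIP-seq in mouse primary hepatocytes (MPH) from adult male wild-type C57Bl6 mice, grown without serum on culture plates. Cells received for 4 h either 1 µM thapsigargin, an inhibitor of the SERCA calcium pump that brings about endoplasmic reticulum stress (ERS), or the vehicle, 0.04% DMSO. Each treatment had 3 H3K27ac libraries, from 3 independent cell preparations, and 1 input library. The comparison asks at which regulatory regions of these genes the acetylation signal changed upon ERS.

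Writers are acetyltransferases that move an acetyl group from acetyl-CoA to histone lysines, readers bind the acetylated lysine, in many cases through a bromodomain, and erasers are deacetylases, several of which act inside corepressor complexes. EP300 and CREBBP are the main enzymes that acetylate H3K27 at enhancers and promoters, so their genes encode the makers of the very mark that was measured. KAT2A (GCN5) and KAT2B (PCAF) are paralogues with a preference for H3K9. BRD2 and BRD3 belong to the BET family of readers. HDAC1 works in the Sin3, NuRD and CoREST complexes, while HDAC3 depends on corepressors such as NCOR1 for its activity and takes part in the daily control of hepatic lipid metabolism.

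The data are 3 lists of genomic intervals, with 5508 regions where H3K27ac rose (UP), 3376 where it fell (DOWN) and 23312 whose change did not pass the threshold (unchanged), 32196 regions in all. Each list was made once from all 6 H3K27ac libraries, so a region carries a class and a width but no read count, fold change or value per library. Library depth is unknown for that reason, the spread between the 3 preparations cannot be shown, and no test between treatments was run. Unchanged means an FDR above 0.05, which does not show that the signal was equal. Hepatocyte markers had a TSS in a region for 8 of 8 genes, against 2 of 19 markers of other liver cell types (Stab2 of endothelial cells and Sox9 of cholangiocytes).

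At their TSSs, 8 of the 9 genes lay in unchanged regions, 1 in an UP and 0 in DOWN ones. The gene in an UP region was Hdac3. Over all 12261 genes with a TSS in a region, a TSS lay in an UP region for 21.4%, in a DOWN one for 8.91%, in an unchanged one for 73.7% and in a changed one of either kind for 29.9%. With these shares, 1 UP and 0 DOWN among 9 genes is a count near the background. Counted as genes with unchanged regions alone, the 8 of 9 (88.9%) stand beside 70.1% of all genes with a TSS in a region. All 4 writers and both readers were among the 8, as were the eraser Hdac1 and the corepressor Ncor1. For Kat2b the class rests on a TSS inside the gene, and its main promoter lay in no region.

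**Figure D1:**
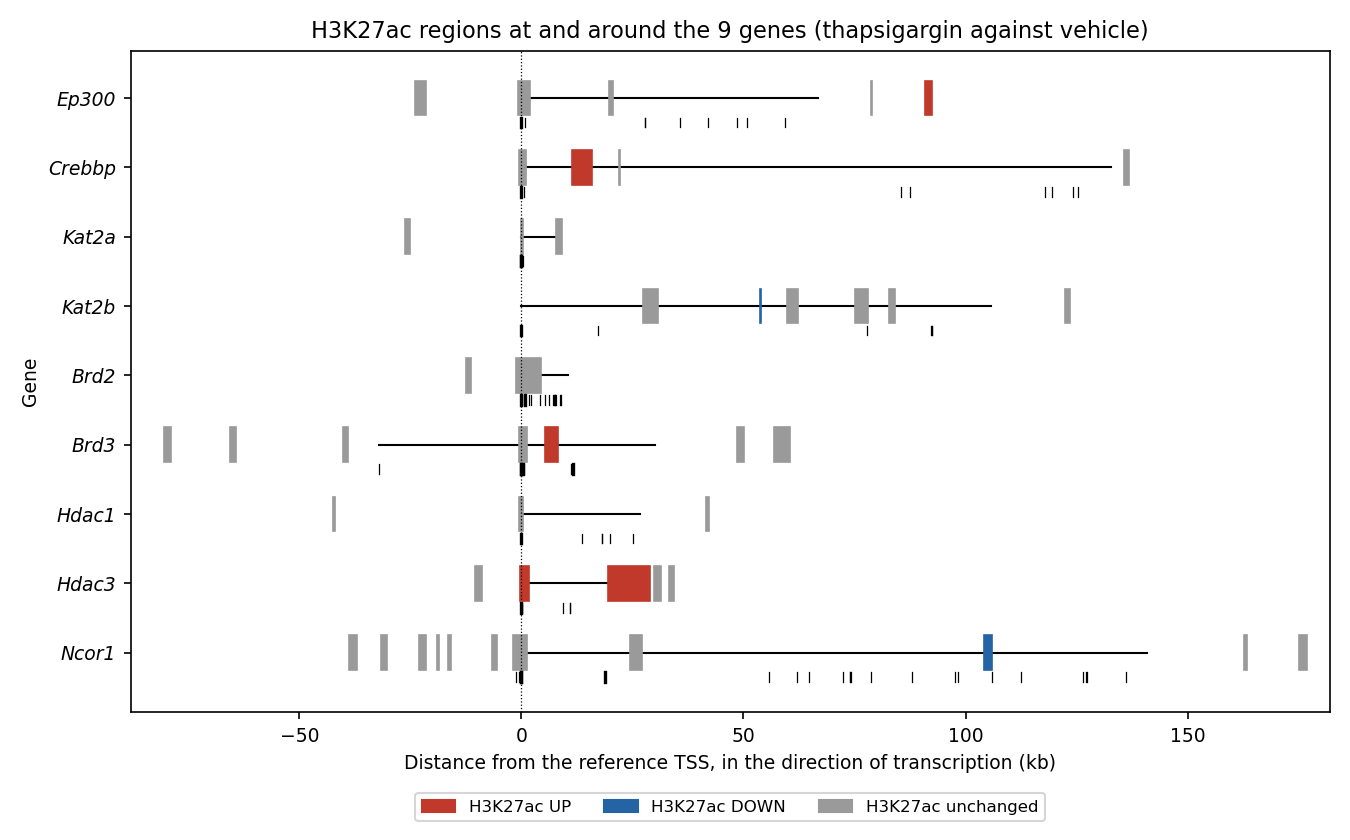
H3K27ac regions (coloured boxes, drawn to scale) at and within 50 kb of the TSSs of each of the 9 genes, plotted by distance in kb from the reference TSS in the direction of transcription. The black line is the gene, ticks under it are annotated TSSs (thick for CCDS transcripts), and the box at 0 is red for Hdac3, grey for 7 genes and missing for Kat2b.

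The widths of the TSS regions differed widely between the genes, from 426 bp at Kat2a to 5749 bp at Brd2, with a median of 2189 bp over the 9. All unchanged regions that hold a TSS had a median of 1530 bp (7667 regions), against 2136 bp for UP (2047 regions) and 3828 bp for DOWN regions (928 regions). Brd2 had one of the widest, since 95.4% of unchanged TSS regions were narrower, and Ncor1 (3111 bp, 82.8%), Kat2b (2972 bp, 81.2%) and Ep300 (2641 bp, 76.7%) followed. The Kat2b region lies inside the gene, 75167 bp downstream of its reference TSS, and not at its main promoter. Brd3 (1736 bp, 57.2%) and Crebbp (1698 bp, 56.1%) were close to the middle of their class. Hdac1 (922 bp, 23.5%) and Kat2a (426 bp, 3.91%) were at the narrow end. The UP region of Hdac3 (2189 bp) was of middling width for its class, with 51.2% of UP TSS regions narrower.

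**Figure D2:**
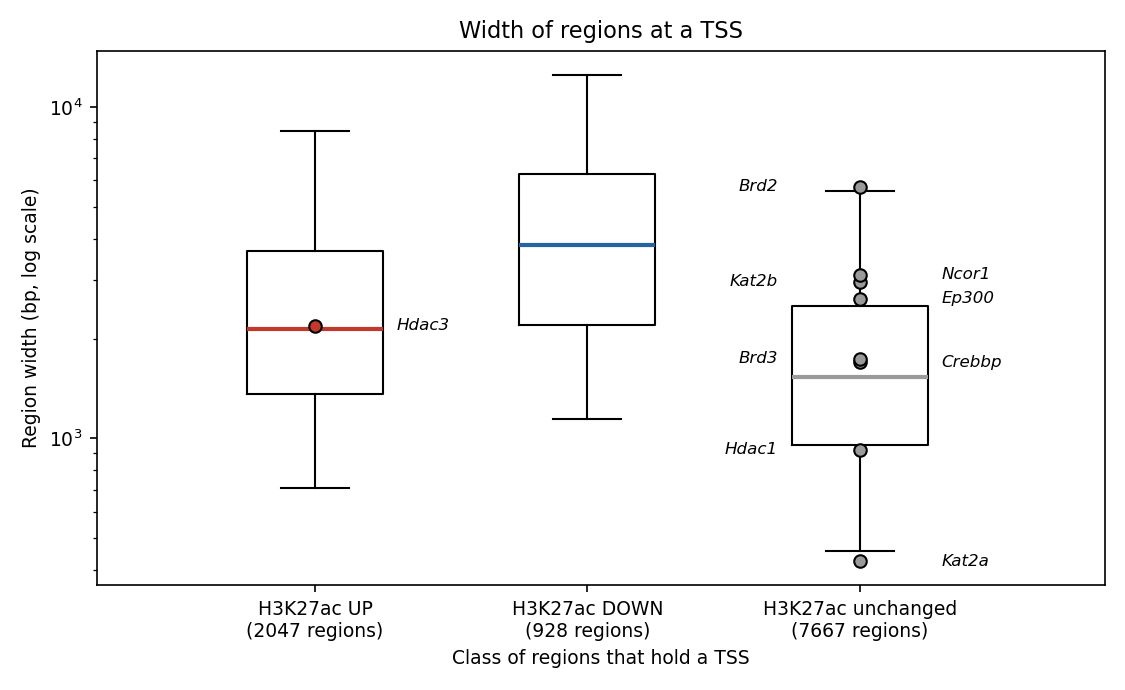
Width in bp (log scale) of the region at the TSS of each of the 9 genes (points) over all regions of the same class that hold a TSS (boxes give quartiles and median, whiskers the 5th and 95th percentiles). The 8 unchanged regions run from 426 bp (Kat2a) to 5749 bp (Brd2), and the UP region of Hdac3 (2189 bp) lies near the median of its class.

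Ep300 (chr15:81585351-81652077, plus strand, mm10) encodes EP300, the acetyltransferase that binds many enhancer factors. Its TSS region at chr15:81584599-81587239 was unchanged, 2641 bp wide, and reached from 798 bp before to 1842 bp after the main TSS (that of its CCDS transcript), over exon 1 and the start of intron 1. It held 3 of the 10 annotated Ep300 TSSs, and also TSSs of 1110025M09Rik and Gm23880, so that its signal cannot be given to Ep300 alone. The only other region in the gene body was an unchanged one of 879 bp in intron 2. The single UP region near Ep300 lay past its 3′ end, at chr15:81676294-81677769 (1476 bp), inside the gene L3mbtl2 and 90897 bp from the main TSS. It counts as within 50 kb only because Ep300 transcripts without CCDS begin inside the gene.

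Crebbp (chr16:4081328-4213997, minus strand), the paralogue of Ep300, had an unchanged TSS region of 1698 bp at chr16:4212886-4214583, which reached from 586 bp before to 1111 bp after the main TSS and held 2 of its 8 TSSs. No other gene has a TSS there. Within intron 1, 11500 bp downstream of that TSS, an UP region of 4398 bp at chr16:4198100-4202497 lay wholly inside the gene and overlapped no other. It was wider than the TSS region itself, and 2446 of all 32196 regions were at least as wide. A further unchanged region of 232 bp followed in intron 1, and the remaining region near the gene was the unchanged TSS region of Trap1 (1028 bp). Both H3K27 acetyltransferase genes had an unchanged promoter and 1 UP region in their 50-kb windows, inside the gene for Crebbp and in a neighbouring gene for Ep300. Such a region is common, since 53.6% of protein-coding genes with a TSS in a region had an UP region within 50 kb. That near Ep300 fell outside when windows were drawn only around TSSs of CCDS transcripts. The 120 bases below come from the Crebbp UP region (chr16:4200302-4200421, mm10, plus strand) and are shown for the AP-1 motif nearest to the middle of the region, in capitals.
Crebbp intron 1 UP region, AP-1: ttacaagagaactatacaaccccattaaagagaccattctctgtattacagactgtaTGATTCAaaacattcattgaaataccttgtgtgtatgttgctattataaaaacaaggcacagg

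Kat2a (chr11:100704746-100712465, minus strand) encodes GCN5, the catalytic subunit of the SAGA and ATAC complexes. Its 4 annotated transcripts start at 3 positions, all in an unchanged region of 426 bp at chr11:100712064-100712489, which began only 24 bp before the TSS and ended 401 bp after it. No changed region lay within 50 kb. The 2 other regions in the window were unchanged and sat at the TSSs of Dhx58 (1346 bp) and Rab5c (1181 bp).

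Kat2b (chr17:53566861-53672720, plus strand) encodes PCAF, the paralogue of GCN5, and it was the 1 gene of the 9 whose main promoter lay in no region of any list. The TSS of its only CCDS transcript is at position 53566971, and the nearest region began 27340 bp downstream in intron 1. Regions that passed the FDR with a mixed direction are in none of the 3 lists, so a missing region is not a measured absence of acetylation. The unchanged class of Kat2b rests on a transcript without CCDS that begins far inside the gene, within an unchanged region of 2972 bp at chr17:53642138-53645109. In its body Kat2b had the most regions of the 9 genes, 4 unchanged and 1 DOWN. The unchanged ones were 3486 bp wide in intron 1, 2478 bp in intron 3, 2972 bp at exon 8 and 1557 bp in intron 9. The DOWN region, at chr17:53620749-53620992 in intron 2, was only 244 bp wide, and 31510 of all 32196 regions were at least that wide. Its sequence (plus strand) is shown whole because it is the narrowest changed region at these genes, and none of the 9 motifs searched was found in it.
Kat2b intron 2 DOWN region: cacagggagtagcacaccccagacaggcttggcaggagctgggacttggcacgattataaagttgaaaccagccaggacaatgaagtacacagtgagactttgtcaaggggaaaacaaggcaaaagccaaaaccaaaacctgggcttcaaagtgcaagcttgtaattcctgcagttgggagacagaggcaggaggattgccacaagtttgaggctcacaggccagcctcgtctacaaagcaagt

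The upstream promoter bases of the 2 KAT2 paralogues are set side by side because one begins at the edge of an unchanged region and the other lies in none. They are the 250 bases before the RefSeq gene start (GRCm38.p6), on the strand of the gene, at chr11:100712468-100712717 for Kat2a and chr17:53566721-53566970 for Kat2b, with CpG dinucleotides in capitals.
Kat2a promoter: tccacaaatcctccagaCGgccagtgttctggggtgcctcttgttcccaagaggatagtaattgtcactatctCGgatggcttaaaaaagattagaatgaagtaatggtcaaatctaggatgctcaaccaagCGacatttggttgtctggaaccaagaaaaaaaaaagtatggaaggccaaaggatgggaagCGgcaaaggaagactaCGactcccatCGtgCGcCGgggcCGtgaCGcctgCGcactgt
Kat2b promoter: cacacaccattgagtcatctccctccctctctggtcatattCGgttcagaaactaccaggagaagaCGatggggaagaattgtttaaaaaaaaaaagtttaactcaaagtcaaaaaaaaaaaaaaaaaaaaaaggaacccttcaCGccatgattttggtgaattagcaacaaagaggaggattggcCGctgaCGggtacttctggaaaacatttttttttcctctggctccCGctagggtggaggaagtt
The Kat2a bases held 11 CpG and 48.8% GC, and 22 of them lay in the unchanged region. The Kat2b bases held 6 CpG and 40.8% GC. The CpG of Kat2a were gathered in the last stretch before the start, while those of Kat2b were spread along the sequence.

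Brd2 (chr17:34112023-34122634, minus strand) encodes a BET protein that helps RNA polymerase pass acetylated nucleosomes. Its unchanged region of 5749 bp at chr17:34118163-34123911 was the widest TSS region of the 9, in a gene of 10612 bp, and it reached from 1311 bp before to 4437 bp after the main TSS. It held 9 of the 19 Brd2 TSSs, including both of CCDS transcripts, and TSSs of H2-DMa and CR974462.3. The only other region in the window was unchanged, 1005 bp wide and inside H2-DMa.

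Brd3 (chr2:27445579-27507662, minus strand), the other BET gene of the list, had an unchanged TSS region of 1736 bp at chr2:27474536-27476271, which held 7 of its 10 TSSs and no TSS of another gene. An UP region of 2934 bp at chr2:27467413-27470346 lay in intron 1 and started 5340 bp downstream of the main TSS. Like Crebbp, Brd3 had an unchanged region at its main promoter and an UP region inside intron 1. Another CCDS transcript of Brd3 starts 11570 bp downstream of the main TSS, in no region. The nearest region to that start was this UP region, 3297 bp upstream of it. Among protein-coding genes with a TSS in a region, 31.2% had an UP region in the gene body. The share with an unchanged promoter as well was not computed. The other regions in its window were unchanged, 2 at Vav2 (3547 and 1525 bp), 1 at the TSS of Wdr5 (1229 bp), 1 at Gm13421 and Gm25541 (1495 bp) and 1 in no gene (1545 bp). The 120 bases below (chr2:27468451-27468570, mm10, plus strand) hold the only copy in this region of the C/EBP-ATF composite motif, the element bound by ATF4 and C/EBP proteins, in capitals.
Brd3 intron 1 UP region, C/EBP-ATF: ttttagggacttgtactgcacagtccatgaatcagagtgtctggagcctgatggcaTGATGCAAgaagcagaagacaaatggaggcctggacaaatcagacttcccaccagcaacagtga

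Ncor1 (chr11:62316426-62458541, minus strand) encodes the corepressor that activates HDAC3 and links it to nuclear receptors. Its main TSS region, chr11:62456167-62459277, was unchanged and 3111 bp wide, with the starts of 4 of the 25 Ncor1 transcripts and a TSS of the neighbouring gene Pigl. A second promoter with a CCDS transcript (TSS at position 62438515) lay in no region, with the nearest 5627 bp away. In the body stood an unchanged region of 2762 bp in intron 3 and a DOWN region of 1754 bp, at chr11:62351458-62353211, over exon 27 and intron 26. This DOWN region was 104121 bp downstream of the main TSS and 68 bp from the annotated start of a non-coding Ncor1 transcript. The remaining 8 regions of the window were unchanged and lay in or at Pigl, Ttc19 and Zswim7. The bases below (chr11:62352189-62352308, mm10, plus strand) come from the Ncor1 DOWN region. In capitals is a match, on the minus strand, to the letters TTANGTAA searched as the D-box, with G at N. The D-box is the motif of the PAR-bZIP factors and of NFIL3. The search took any base at N, and a match of letters is not a bound site. Whether these bases lie in exon 27 or in intron 26 was not determined.
Ncor1 exon 27 DOWN region, D-box: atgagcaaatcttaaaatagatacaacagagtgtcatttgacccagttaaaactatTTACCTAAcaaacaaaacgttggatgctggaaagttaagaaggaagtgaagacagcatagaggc

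Hdac1 (chr4:129516104-129542713, minus strand) had an unchanged TSS region of 922 bp at chr4:129542334-129543255, with 2 of its 7 TSSs and none of another gene. Its 2 other regions, both unchanged, were 559 bp and 364 bp wide and lay 41657 bp downstream and 42016 bp upstream of the TSS. These 3 regions covered 1845 bp, the least of the 9 genes.

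Hdac3 (chr18:37935844-37955016, minus strand) was the single gene of the list with an UP region at its TSS. That region, chr18:37953215-37955403, was 2189 bp wide and reached from 387 bp before to 1801 bp after the main TSS, into exon 2 and intron 2. It held 3 of the 6 Hdac3 TSSs and a TSS of the neighbouring gene Rell2, so that a rise at one promoter and a rise at the other cannot be told apart. Beyond the 3′ end of Hdac3, 19460 bp downstream of its TSS, stood a much wider UP region of 9387 bp at the TSS of Diaph1, which encodes an actin-nucleating formin. Only 359 of all 32196 regions were at least as wide. The 2 UP regions summed to 11576 bp of the 15730 bp of H3K27ac region within 50 kb. The other 3 regions were unchanged, 2 in Diaph1 (1114 and 1599 bp) and 1 at the TSS of Fchsd1 (1441 bp). Hdac3 thus had an UP region at its TSS, whereas the gene of its partner Ncor1 had an unchanged one and its single changed region deep in the gene.

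Over the 50-kb windows, the 9 genes had 46 regions, of which 5 were UP, 2 DOWN and 39 unchanged. An UP region lay in the window of 4 of 9 genes (Ep300, Crebbp, Brd3 and Hdac3) and a DOWN region in that of 2 of 9 (Kat2b and Ncor1). Among 9805 protein-coding genes with a TSS in a region, 53.6% had an UP region within 50 kb and 31.3% a DOWN region, so neither count was far from the background. No gene of the list had both kinds, and 3 (Kat2a, Brd2 and Hdac1) had neither. The shares of all genes with both kinds or with neither were not computed, so these counts have no background. The median gene of the list had 5 regions in its window, 3 of them unchanged, beside 4 and 3 for the protein-coding genes. The number ran from 2 at Brd2 (a gene of 10612 bp) to 11 at Ncor1 (142116 bp), while Crebbp (132670 bp) had 4. A link with gene length or with the spread of TSSs was not tested. Gene bodies held 19 regions, 3 UP, 2 DOWN and 14 unchanged. An UP region lay in the body of 3 genes (Crebbp, Brd3 and Hdac3, background 31.2%) and a DOWN region in that of 2 (Kat2b and Ncor1, background 15.4%). When windows were drawn only around TSSs of CCDS transcripts, 4 UP, 0 DOWN and 29 unchanged regions were left: the UP region near Ep300 and both DOWN regions fell outside, and Kat2b kept no region at a TSS.

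**Figure D3:**
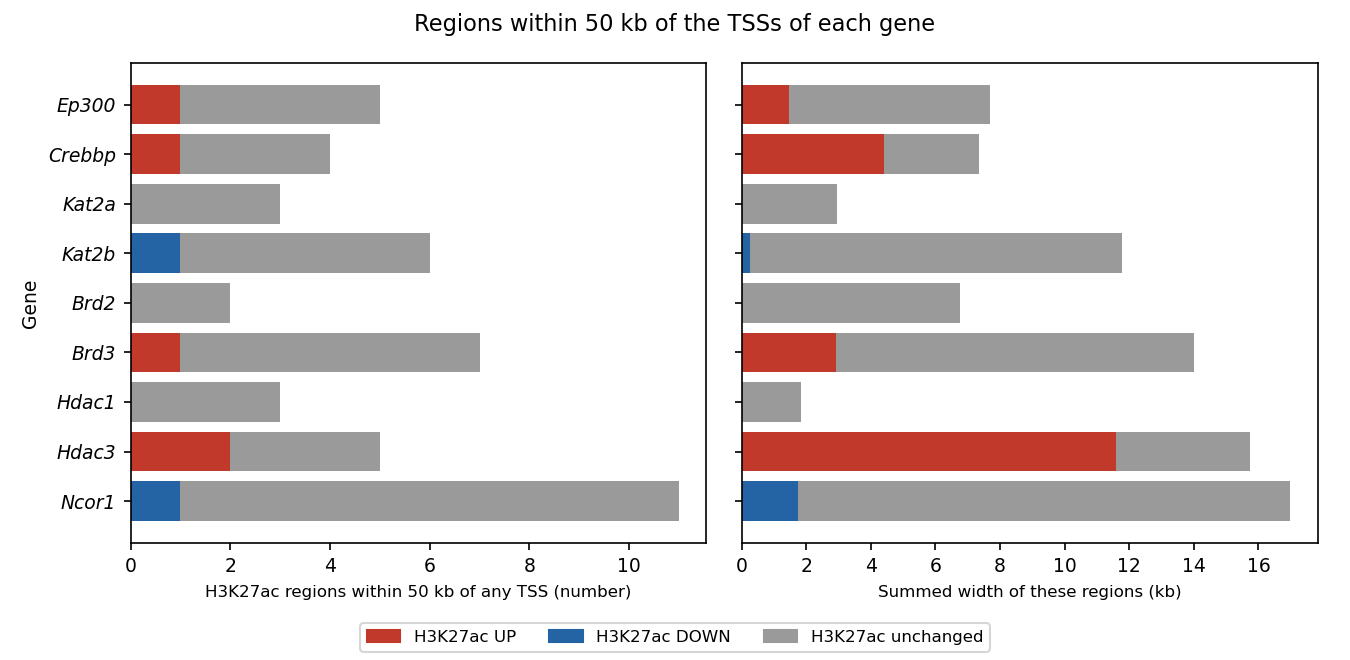
Number (left) and summed width in kb (right) of H3K27ac regions within 50 kb of any TSS of each of the 9 genes, by class. Ncor1 has the most regions (11) and Brd2 the fewest (2), while UP regions take up more of the width than unchanged ones at Hdac3 (11576 of 15730 bp) and Crebbp (4398 of 7356 bp).

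The TSS regions also differed in base composition, which the choice of genes did not use. CpG observed/expected is the number of CpG dinucleotides over that given by the C and G content. It ran from 0.212 (Kat2b) to 0.981 (Crebbp) over the 9 TSS regions, with a median of 0.769, beside medians of 0.648 for all unchanged, 0.596 for all UP and 0.309 for all DOWN regions at a TSS. GC content ran from 43.7% (Kat2b) to 73.3% (Crebbp), with a median of 61.8% beside 55.2% for unchanged TSS regions. Crebbp and Brd3 were among the richest in CpG, since 97.1% and 94.0% of unchanged TSS regions had a lower ratio. The UP region of Hdac3 was CpG-poor (0.373, with 23.7% of UP TSS regions lower), and the internal region of Kat2b had the lowest ratio of the 9. The 37 other regions of the genes had a median of 0.201, and the ratio over all regions without a TSS was not computed. The 6 changed regions away from a member TSS had ratios of 0.111 (Crebbp), 0.122 (Brd3), 0.13 (Kat2b), 0.141 (Ep300), 0.175 (Ncor1) and 0.313 (the Diaph1 region near Hdac3), all below every TSS region of the 9 genes except that of Kat2b. Repeats masked 48.4% of the Kat2b and 6.16% of the Ncor1 DOWN region, while the 4 UP regions away from a member TSS ran from 14.9% (Brd3) to 31.6% (Crebbp), beside medians of 17.2% and 16.8% for all DOWN and UP regions without a TSS.

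**Figure D4:**
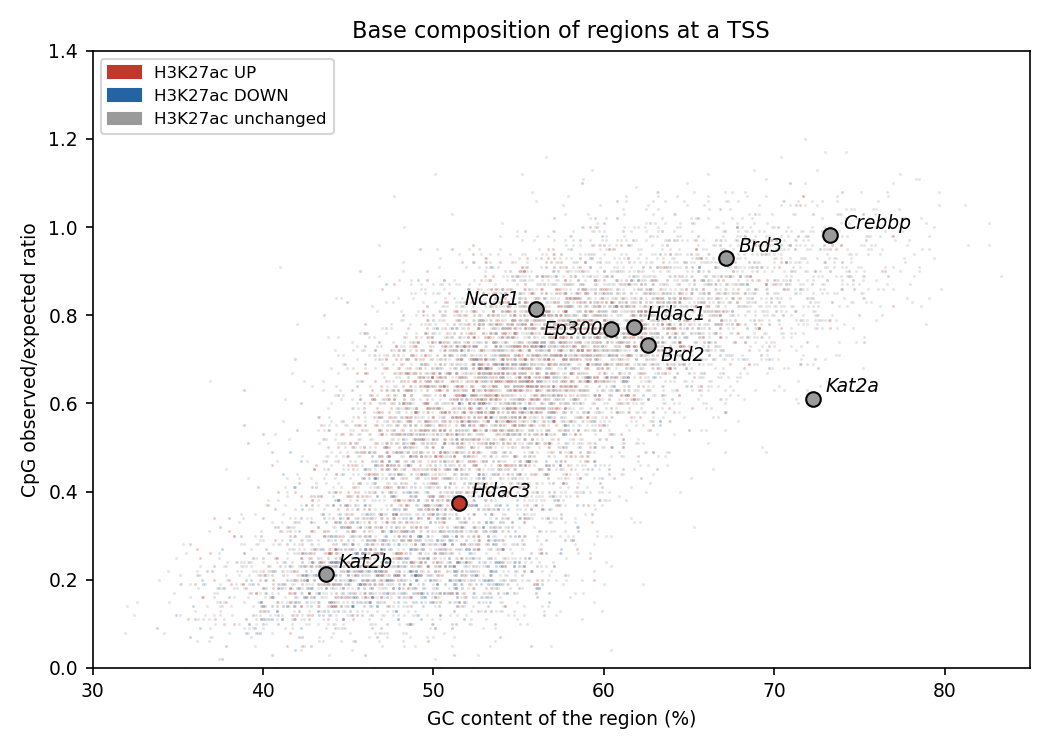
GC content (x axis, %) against CpG observed/expected ratio (y axis) of the region at the TSS of each of the 9 genes (large points) and of all regions that hold a TSS (small points), coloured by class. Crebbp (73.3%, 0.981) and Kat2b (43.7%, 0.212) lie at opposite ends, and Hdac3 (51.5%, 0.373) lies below the 7 other genes.

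In the 7 changed regions, 9 short motifs were searched on both strands. They were the CRE (TGACGTCA), the UPRE core (TGACGTGG), the C/EBP-ATF composite (TGATGCAA), the ERSE (CCAAT followed 9 bases later by CCACG), AP-1 (TGANTCA), FOXA (TGTTTAC), C/EBP (TTGCNNAA), HNF4 (CAAAGTCC) and the D-box (TTANGTAA), and none of them contains another. The CRE, UPRE core, ERSE, FOXA and HNF4 letters were found in 0 of the 7. Their shares were taken in the central stretch, of the same length, of all regions at least as wide. From the Kat2b to the Diaph1 region, these were 4.48% to 76.0% for FOXA and 1.99% to 42.6% for HNF4. They were 0.638% to 7.8% for the CRE and 0.374% to 12.0% for the UPRE core. The ERSE ran from 0.0254% (Kat2b) to 0.368% (Crebbp). The 0 was not tested against these shares. AP-1 was found in 6, with 3 copies at Crebbp, 2 at Ep300, 1 each at Brd3, the Hdac3 TSS and Ncor1, and 5 at Diaph1, but it is common: in the central stretch of the same length of all regions at least as wide, it is found in 82.1%, 47.4%, 68.7%, 59.1%, 52.6% and 95.8% in the same order. The C/EBP-ATF composite was found once at Brd3, where 9.48% of these central stretches hold it, and once in the Diaph1 region (24.0%). The C/EBP letters were found in 4, with 1 copy at Ep300 (49.1% of central stretches), 2 at Brd3 (73.8%), 3 at Diaph1 (96.7%) and 1 at Ncor1 (55.2%). The D-box letters, with any base at N, had 2 copies in the Ncor1 DOWN region (17.7%) and 4 in the Diaph1 region (59.9%). A match is a match of letters and not a bound site.

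RefSeq promoters (250 bases before to 50 after each start, GRCm38.p6) were matched by symbol for 7 of the 9 genes, with 11 promoters in all, and not for Hdac1 and Hdac3. Of these 11, 3 held any of the motifs, a count without a share over all promoters, which was not computed. They were the second Ncor1 promoter (C/EBP, in 10.8% of all 32851 promoters), an internal Brd2 promoter (FOXA, 3.65%) and the main Kat2b promoter (AP-1, 7.81%, the letters tgagtca near the start of the sequence above). The second Ncor1 promoter, in no region, held 2 CpG and 38.3% GC, and the main one, in the unchanged region, held 36 CpG and 72.3% GC.

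The list of 9 was read beside 109 other genes of the acetylation machinery, of which 99 had a TSS in a region. Of these 99, 13 (13.1%) were at UP regions and 10 (10.1%) at DOWN regions, with Baz2b in both, and 77 (77.8%) in unchanged regions alone. These shares stand beside 21.4%, 8.91% and 70.1% over all genes. Among 12 other writers with a region, only Gtf3c4 (1808 bp, shared with Ddx31) was UP and none was DOWN. Of 23 genes of writer complexes, 4 were UP (Supt3 of SAGA, 1433 bp, Ing4, 2419 bp, Jade1, 3343 bp, and Msl3, 2965 bp), and Jade2 was DOWN (4288 bp). Of 23 readers, Dpf2 (2538 bp), Smarca2 (4859 bp) and Baz2b (2658 bp) had UP regions, while Baz1b (2026 bp), Phip (6502 bp), Zmynd8 (7899 bp) and again Baz2b (3196 bp) had DOWN regions. Jade1 (2111 bp), Smarca2 (4407 bp) and Baz2b (1449 bp) also had a TSS in an unchanged region. For Baz2b, TSSs of CCDS transcripts lay in the DOWN region alone. TSSs of other genes also lay in the TSS regions of Ing4 (Gm44597), Jade1 (Gm31266), Dpf2 (Gm42067), Zmynd8 (BC046401) and Baz2b (March7 and Gm13620). Among 13 erasers, Sirt2 was UP (2302 bp, shared with Nfkbib), and Hdac7 (1734 bp) and the mitochondrial deacetylase gene Sirt3 (3471 bp, shared with Psmd13) were DOWN. Among 28 genes of eraser complexes, 4 were UP, namely Gps2, a subunit of the NCOR-HDAC3 complex (1082 bp), the histone chaperones Rbbp4 (2059 bp, shared with Zbtb8os) and Rbbp7 (2784 bp), and Mbd2 of NuRD (3822 bp). The 3 in DOWN regions were Suds3 of the Sin3 complex (8384 bp, shared with Taok3) and the NuRD genes Mta1 (1691 bp) and Mta3 (976 bp). Hdac2, the paralogue of Hdac1, was in an unchanged region (1076 bp), as Hdac1 was (922 bp).

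**Figure D5:**
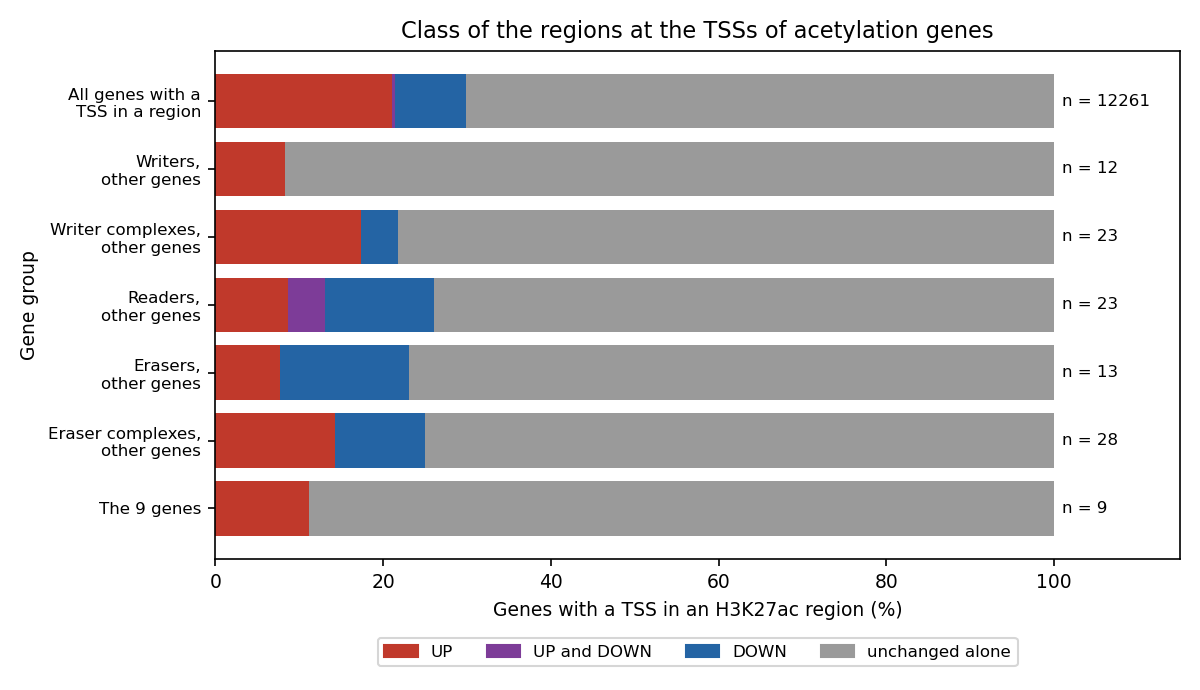
Share (%) of genes with a TSS in an H3K27ac region that had it in UP, UP and DOWN, DOWN or unchanged regions alone, for all genes, for the other acetylation genes by role and for the 9 genes. The 9 genes show 11.1% UP and no DOWN, beside 21.4% and 8.91% over all 12261 genes.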

How the data were processed

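H3K27ac ChIP-seq and input libraries (8 in all) were grouped by the labels. Per the labels and the study's methods, the authors mapped reads to mm10 with Bowtie, removed duplicates and blacklisted regions, called broad peaks with MACS2 on pooled libraries, and compared treatments with csaw 1.6.1 in bins of 150 bp, paired by preparation. Bins overlapping a peak by at least 75 bp were merged. Merged regions with FDR up to 0.05 were UP or DOWN where the ratio of UP to DOWN bins was at least 2 or at most 0.5. Ratios in between were dropped, and FDR above 0.05 was unchanged. The deposited lists hold positions only, without signal. Pooling and peak calling fix the region borders, so widths and overlaps depend on them.

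Here, regions were crossed with GENCODE M21 (141730 transcripts, mm10), with 1 bp as overlap, in Python 3.11.15 with pandas 2.3.3. Overlap code was tested on simulated intervals. The reference TSS is that of the most upstream APPRIS principal transcript. Sequences came from RefSeq GRCm38.p6. The text names the 9 genes, genes sharing their TSS regions, and every other acetylation gene with a TSS in a changed region, while Hdac2 was added after its value was seen. Some genes are not reported here. The genes and lists were chosen with earlier results of these data known. Alternatives varied the TSS set, the overlap, the window and the width.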

Additional observations from a re-analysis of the deposited data

How the results depend on the processing

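Of 75 alternative values, 63 stayed within 1.5 times the reported count or share, and 12 moved. At the TSSs of the 9 genes, DOWN went from 0 to 1 when a TSS within 1 kb of a region counted (Ncor1). Asking a region to cover 500 bp on both sides of the TSS left 0 UP and 5 unchanged genes (Kat2a, Kat2b, Hdac1 and Hdac3 dropped out), and 50 of the 80 unchanged genes among the other acetylation genes. Windows of 10 kb held 3 UP, 1 DOWN and 15 unchanged regions, and windows of 100 kb held 9 UP and 71 unchanged. Regions of at least 1 kb left 1 DOWN region in the windows and 1 in the bodies. TSSs of CCDS transcripts, chosen after seeing the data, left 0 DOWN regions in the windows. No paired analysis was possible because the deposited lists hold no value per library, and leaving out replicates was not run for the same reason. Depth and the size of any change are unknown, a region shared by several genes has 1 class for all, and H3K27ac at a gene is not its expression.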
